A study of Mus musculus with 4 samples.

Results

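The replication-dependent histone genes lie in clusters and encode the canonical histones that package newly made DNA. The members were all rows of the deposited table whose symbol begins with Hist1h, Hist2h, Hist3h or Hist4h, apart from 4 genes of the same clusters that are testis histones or germ-cell-rich (Hist1h1a, Hist1h1t, Hist1h2aa and Hist1h2ba). This gave 53 members of 14984 genes. By symbol, 4 encoded the linker histone H1, 12 encoded H2A, 15 encoded H2B, 9 encoded H3 and 13 encoded H4. The rule reads symbols alone, but the set was selected on the measured fold changes between these same groups, which were known when the rule was written. Fold changes, sums, shares of reads, calls and counts among members below therefore describe the values that shaped the set. Nothing is read from their size or number, whatever the share of all genes printed beside them.

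A nucleosome holds DNA around a core of H2A, H2B, H3 and H4, and H1 sits on the linker DNA between nucleosomes. Cells make most canonical histone during S phase, from many nearly identical genes. Their mRNAs as a rule end in a stem-loop that is bound by SLBP instead of a poly(A) tail, so methods that select poly(A) RNA lose most of them, whereas ribosome footprinting does not depend on the tail. In the testis, the proliferating spermatogonia are a main site of DNA replication, and germ cells that enter meiosis add testis-specific histones.

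Ribosome footprints, the mRNA fragments that ribosomes shield from nuclease, were sequenced from testes of day 10 mice. There were 2 control samples and 2 samples in which floxed Eif5 alleles (Eif5 fl/fl) had been deleted with Stra8-Cre, a Cre recombinase driven by the promoter of the germ cell gene Stra8 (Eif5 cKO). Eif5 encodes a translation initiation factor that acts in start codon selection. The sources used here give neither the genotype of the controls nor the number of animals in a sample. The p-values therefore rest on differences among these samples, possibly technical ones. Cells of the testis in which the Stra8 promoter is silent keep Eif5. The comparison asked how the footprints on histone mRNAs differed between these testes.

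Libraries held 2225964 to 2934609 recovered reads. Values are the deposited ones, reads divided by a size factor for each library. Eif5 itself had values of 365 and 304 in control against 173 and 266 in Eif5 cKO, and the log2 fold change of -0.63 (SE 0.25) was not called (limma, Benjamini-Hochberg adjusted p = 0.319). All 20 Sertoli cell markers of the fixed list were in the table. They took 2.31% and 3.001% of control reads and 4.02% and 3.01% of Eif5 cKO reads, and 16 of 19 tested had a positive log2 fold change. Most of the reads on this list came from Clu in each library. Clu had 35568 and 52646 in control against 70687 and 48370 in Eif5 cKO, which overlap (0.43, SE 0.50). Hsd17b1, named after its values were seen, was the 1 Sertoli marker called, and it rose (1.44, SE 0.35, limma adjusted p = 0.0338); 0 were called when control replicate 1, control replicate 2 or the first knockout replicate was dropped. edgeR also called Hsd17b1, DESeq2 called Inha higher in its place, and limma-voom called both. The Sertoli list median of 0.36 was 0.24 or 0.45 without control replicate 1 or 2. It was 0.27 or 0.53 without Eif5 cKO replicate 1 or 2. The 9 Leydig cell markers took 0.0747% and 0.0847% of control reads and 0.122% and 0.116% of Eif5 cKO reads, and all 8 tested were positive (median 0.71). The 9 macrophage markers took 0.0469% and 0.0527% of control reads and 0.0625% and 0.0687% of Eif5 cKO reads, and all 8 tested were positive (median 0.45). In both lists 0 were called by limma, edgeR, DESeq2 or limma-voom, with 6 Leydig and 2 macrophage markers at an unadjusted p under 0.05. With Eif5 cKO replicate 1 or replicate 2 dropped, 1 or 3 Leydig markers were called higher. Of the other somatic lists, all 7 peritubular myoid markers were negative (median -0.20) and 6 of 8 endothelial markers positive (median 0.13). Of 19 meiotic prophase markers in the table, Meiob, Spo11, Msh4 and Prdm9 were listed at 0 in at least 1 library. The meiotic markers took 0.178% and 0.156% of control reads and 0.0559% and 0.0674% of Eif5 cKO reads. All 16 tested had a negative log2 fold change, and 10 were called lower (limma, adjusted p under 0.05). Fewer were called when either control replicate was dropped, as was so over all genes. The list median of -1.44 was then -1.36 without control replicate 1 and -1.64 without control replicate 2. The 10 markers of differentiating spermatogonia took 0.218% and 0.187% of control reads and 0.148% and 0.145% of Eif5 cKO reads. Of these 10, 9 had a negative log2 fold change, and limma called 2 lower. Neither was called without control replicate 1, where the list median of -0.59 was -0.68. That median was -0.34 without control replicate 2 and -0.48 with a filter of 50 reads in 2 libraries. The 12 markers of undifferentiated spermatogonia in the table took 0.0389% and 0.0316% of control reads and 0.0329% and 0.0344% of Eif5 cKO reads, and 0 of the 9 tested were called by limma, edgeR, DESeq2 or limma-voom, with 0 at an unadjusted p under 0.05. These shifts stand beside every histone result below, and their part in it was not tested. In footprints of whole tissue, fewer cells of a type, less RNA per cell and fewer ribosomes per RNA cannot be told apart.

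The 53 members together took a smaller share of footprints in Eif5 cKO testes. Control libraries spent 0.756% and 0.790% of their reads on them, knockout libraries 0.560% and 0.563%. Neither knockout library reached a control. The difference of the group means was -0.212 percentage points, and the pooled SD between samples of a group was 0.0171. As the members were selected on differences between these groups, the gap describes the set and is no support for a decrease. The sum of values was 18111 and 20193 in control against 14620 and 14045 in Eif5 cKO, a ratio of 0.748. No test of the sum was made.

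Of the 53 members, 51 passed the filter on low reads. Hist1h2ad, with values of 5.68 to 7.34, and Hist2h2be, with 0 to 13.8, did not. Among the 51, 6 were called lower and 0 higher in Eif5 cKO (limma, adjusted p under 0.05), where 0.604% of all 12095 genes tested were called lower and 0.0744% higher. Beside the count of 0, an unadjusted p under 0.05 was reached by 2 members with higher and 20 with lower values (4.32% and 6.31% of all genes). Members called lower numbered 6 in edgeR, 4 in DESeq2 and 6 in limma-voom, where 0.661%, 0.48% and 0.67% of all genes were called lower. None of these tools called a member higher, against 0.0992% of all genes in edgeR, 0.0744% in DESeq2 and 0.157% in limma-voom. The 6 called members were 4 of the 14 tested H2B genes (Hist1h2bk, Hist3h2ba, Hist1h2bm and Hist1h2bj), the H2A gene Hist1h2ak and the H3 gene Hist1h3a. The count lower was 1 when control replicate 1 was dropped (0.0744% of all genes lower, 0.00827% higher) and 1 when control replicate 2 was (0.149% and 0.0165%). It was 3 when Eif5 cKO replicate 1 was dropped (0.951% and 0.0992%) and 9 when Eif5 cKO replicate 2 was (2.02% and 0.843%). Both knockout samples lay below both controls for 27 of the 51 tested members and above both for 5, against 20.9% and 20.0% of all genes tested. The median log2 fold change was -0.47 over the tested members, 38 of which were negative (49.7% of all genes were), and 0.003 over all genes tested. It was -0.20 without Eif5 cKO replicate 1.

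**Figure D1:**
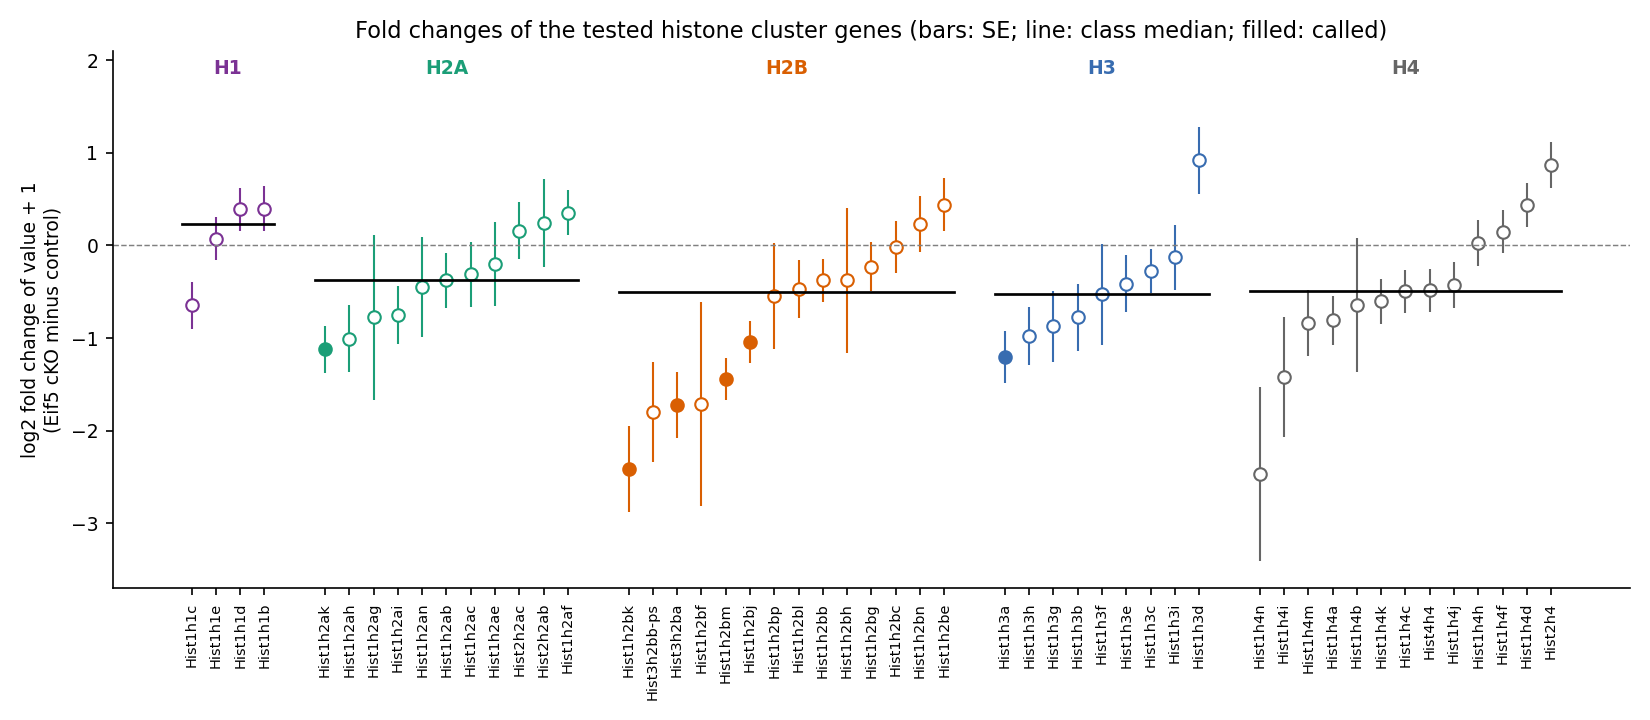
Log2 fold change of value + 1 (Eif5 cKO minus control, vertical axis) of each of the 51 tested members, in order within its class; bars are standard errors, black lines class medians and filled points the 6 called members. Of the filled points 4 are H2B genes. The median of the 4 H1 members is above 0 (0.23), as in no other class. It was -0.20 under scaling to the Sertoli list and -0.09 without Eif5 cKO replicate 2. The H1 genes Hist1h1a (-1.39) and Hist1h1t (-1.21), set aside by the rule, have no point.

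H2B footprints were lower in sum in both knockout libraries. The 15 H2B genes summed to 5749 and 5545 in control against 3309 and 3622 in Eif5 cKO, a ratio of 0.614 with no overlap between the groups. The knockout values lay 1923 or more below the lower control value. The log2 fold change was negative for 12 of 14 tested H2B genes, and its median was -0.51. That median was -0.17 without Eif5 cKO replicate 1 and -0.93 without Eif5 cKO replicate 2, so 1 library sets much of its size.

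Hist1h2bm (chromosome 13, 21722044 to 21722526, GRCm38.p6) had values of 1011 and 876 in control against 307 and 389 in Eif5 cKO. Each knockout value was under the lower control value. Its mean went from 943 ± 95.7 to 348 ± 58.4 (SD, n = 2 each), a log2 fold change of -1.44 (SE 0.23). It was not called without control replicate 1, where the log2 fold change was -1.34. Hist1h2bj (chromosome 13, 22043198 to 22043658), one of the 3 most abundant H2B genes, had 1736 and 1837 in control against 972 and 774 in Eif5 cKO. It was thus 2.05-fold lower, with a log2 fold change of -1.04 (SE 0.23). With control replicate 1, with control replicate 2 or with Eif5 cKO replicate 2 dropped this was -1.08, -0.999 or -0.88, and Hist1h2bj was not called.

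The other called H2B genes had lower levels. Hist3h2ba (chromosome 11, 58948911 to 58949372) had 133 and 102 in control against 35.2 and 34.1 in Eif5 cKO, a log2 fold change of -1.72 (SE 0.36). It was -1.53 without control replicate 1 and -1.91 without control replicate 2, and Hist3h2ba was called in neither. It overlaps the annotated noncoding RNA gene Gm51864, and reads of overlapping genes can be told apart only if the counting used strand, which the sources used here do not say. Its neighbour Hist3h2bb-ps, an annotated transcribed pseudogene, had 60.4 and 51.7 in control against 7.95 and 28.7 in Eif5 cKO (log2 fold change -1.80, SE 0.54) and was not called. Whether the counting shared reads between it and Hist3h2ba was not tested.

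Hist1h2bk (chromosome 13, 22035821 to 22036320) had nearly equal control values of 170 and 179 but unlike knockout values of 11.4 and 87.0, from 10 and 97 reads. Its log2 fold change of -2.41 (SE 0.46) was -0.99 without Eif5 cKO replicate 1. In edgeR it was -1.79 and in DESeq2 -1.82, and the ratio of the means was 0.282. Hist1h2bk was not called without that library, in DESeq2, or without control replicate 1 (-2.45) or control replicate 2 (-2.37). The size of this decrease thus rested on 1 library, while both knockout samples were below both controls. Hist1h2bb, the other abundant H2B member, had 1862 and 1723 in control against 1219 and 1558 in Eif5 cKO (log2 fold change -0.38, SE 0.23) and was not called. The highest log2 fold change of the class was that of Hist1h2be, with 114 and 93.0 in control against 149 and 132 in Eif5 cKO (0.44, SE 0.29). At the low end, Hist1h2bf was listed at 0 in Eif5 cKO replicate 1 and at 24.2 in replicate 2, beside 22.9 and 10.3 in control.

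**Figure D2:**
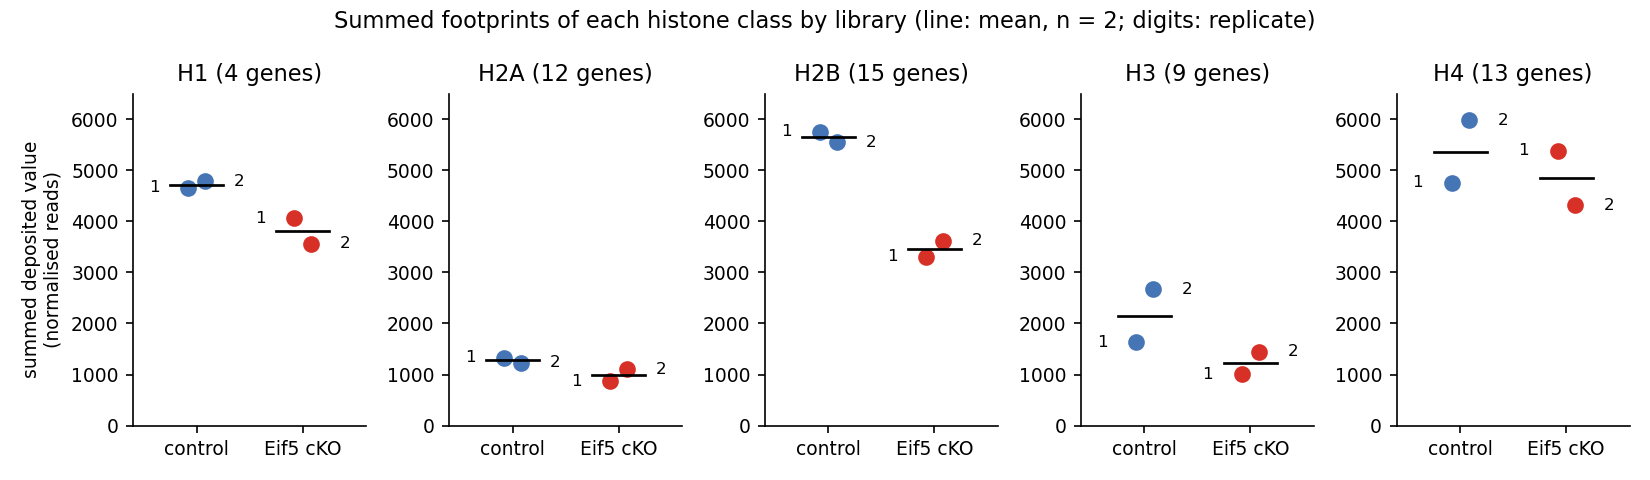
Summed deposited values (normalised reads, vertical axis from 0) of the members of each histone class in the 4 libraries, with digits for the replicate and a line for the mean of n = 2. The H4 groups overlap, whereas the H2B groups are parted by 1923.

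H2A footprints were also lower in sum in both knockout libraries. The 12 H2A genes summed to 1325 and 1227 in control against 866 and 1100 in Eif5 cKO, a ratio of 0.770, and the groups did not overlap. Hist1h2ak (chromosome 13, 21753377 to 21753912), the most abundant H2A member in control, had 353 and 354 in control against 132 and 198 in Eif5 cKO. The controls were almost the same and each knockout sample was well below them, with a log2 fold change of -1.12 (SE 0.25). Its call was lost when control replicate 1 (-1.12), when control replicate 2 (-1.12) or when Eif5 cKO replicate 1 (-0.83) was dropped. Hist1h2af, the second in level, had knockout values above both controls, with 226 and 203 in control against 252 and 298 in Eif5 cKO (0.35, SE 0.25); it was not called, and its sign turned under scaling to the Sertoli list (-0.07). Hist1h2aa, set aside by the rule, had 470 and 472 in control against 62.5 and 79.0 in Eif5 cKO. Its reads are not in the shares that follow. Of the reads on the 12 H2A members, Hist1h2af took 17.1% and 16.6% in control against 29.1% and 27.1% in Eif5 cKO. Hist1h2ak took 26.7% and 28.8% in control against 15.2% and 18.0% in Eif5 cKO. Hist1h2ak had the larger share in both controls and Hist1h2af in both knockout samples. Hist1h2ab, the third, had 203 and 119 in control against 102 and 140 in Eif5 cKO, which overlap. The other 8 tested H2A genes had log2 fold changes of -1.01 (Hist1h2ah) to 0.24 (Hist2h2ab), and none was called. The H2A median of -0.38 was -0.14 without Eif5 cKO replicate 1, -0.60 without Eif5 cKO replicate 2 and -0.75 without control replicate 2.

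The largest part of H3 reads in each library came from Hist1h3a, whose level varied widely between samples of a group. Hist1h3a (chromosome 13, 23761885 to 23762386) had 692 and 1747 in control against 358 and 633 in Eif5 cKO. Its control samples differed from each other by more than the group means did, although both knockout values were below both controls. Hist1h3a had a log2 fold change of -1.21 (SE 0.28), but -0.54 with control replicate 2 dropped and -0.79 with Eif5 cKO replicate 1 dropped. It was not called in those fits or in DESeq2. The 9 H3 genes summed to 1628 and 2669 in control against 1008 and 1445 in Eif5 cKO. Without Hist1h3a control sums were 936 and 922 and knockout sums 650 and 812, a ratio of 0.787 in place of 0.571. Of the 8 other H3 genes, 5 were lower in both knockout samples (20.9% of all genes tested were). Among these Hist1h3h had 132 and 154 in control against 56.8 and 90.6 in Eif5 cKO (log2 fold change -0.98, SE 0.31; -1.31 and called without Eif5 cKO replicate 2), and Hist1h3c had 344 and 325 in control against 281 and 270 in Eif5 cKO (-0.28, SE 0.24). Hist1h3i and Hist1h3f overlapped between the groups. Hist1h3d was higher in both knockout samples, with 56.3 and 40.2 in control against 77.3 and 107 in Eif5 cKO (0.92, SE 0.36), and it was not called. The H3 median of -0.53 moved to -0.34 with control replicate 1 dropped and to -0.28 with Eif5 cKO replicate 1 dropped.

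H4 genes did not differ in sum beyond the spread of the samples. The 13 genes summed to 4753 and 5973 in control against 5376 and 4314 in Eif5 cKO, a ratio of 0.903 with overlapping groups. Of the 13, 0 were called by limma, edgeR, DESeq2 or limma-voom. An unadjusted limma p under 0.05 was reached by 8 (of all genes, by 6.31% with lower and 4.32% with higher values). The median log2 fold change of the 13 genes was nevertheless -0.50. Of them, 7 were lower in both knockout samples (20.9% of all genes tested were), while some abundant ones were not. The median was -0.21 without Eif5 cKO replicate 2. Hist1h4c, the most abundant, had 1211 and 1299 in control against 1046 and 755 in Eif5 cKO (-0.50, SE 0.23). Hist1h4d had 555 and 763 in control against 1052 and 737 in Eif5 cKO (0.44, SE 0.24), and Hist1h4f had 554 and 876 in control against 758 and 787 in Eif5 cKO (0.15, SE 0.23). Hist2h4 (chromosome 3, 96262934 to 96263317) was the H4 gene with the highest log2 fold change. It had 202 and 321 in control against 536 and 404 in Eif5 cKO, both above the controls (0.86, SE 0.25). It was called higher in the fit without Eif5 cKO replicate 2 and in no other fit of those tried. Hist1h4n had 35.9 and 37.9 in control, and was listed at 0 in Eif5 cKO replicate 1 and at 45.8 in replicate 2. Its log2 fold change of -2.47 (SE 0.94) became 0.30 without Eif5 cKO replicate 1, and -5.24, which was called, without Eif5 cKO replicate 2. It was -0.65 in edgeR and -0.69 in DESeq2, and the ratio of the means was 0.620, so its size rested on 1 library and on the scale.

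The linker histone genes differed among themselves. Hist1h1c had the highest value of all 53 members, 3239 and 3568 in control against 2625 and 1795 in Eif5 cKO (log2 fold change -0.65, SE 0.25), and it was not called. It was called under scaling to the Sertoli list (-1.08), and was -0.92 or -0.37 with Eif5 cKO replicate 1 or replicate 2 dropped. Both knockout samples lay below the controls, but they differed from each other by 830. Hist1h1e had 623 and 522 in control against 498 and 721 in Eif5 cKO, which overlap (0.07, SE 0.23), and Hist1h1b had 402 and 350 against 382 and 638, which also overlap (0.40, SE 0.24). Hist1h1d had 393 and 339 in control against 557 and 409 in Eif5 cKO, both higher (0.39, SE 0.23). Of the reads on the 4 H1 members, Hist1h1c took 69.6% and 74.7% in control against 64.6% and 50.4% in Eif5 cKO. The H1 sum of 4656 and 4778 in control against 4061 and 3564 in Eif5 cKO thus followed Hist1h1c. Without it control sums were 1417 and 1211 and knockout sums 1436 and 1768. The class median of 0.23 became -0.20 under scaling to the Sertoli list and -0.09 when Eif5 cKO replicate 2 was dropped. The H1 genes Hist1h1a (-1.39, SE 0.26) and Hist1h1t (-1.21, SE 0.32), set aside by the rule, are in none of these shares, sums and medians. Hist1h1a had 8192 and 5671 reads in control against 3969 and 3108 for Hist1h1c. In Eif5 cKO Hist1h1a had 2188 and 2832 reads against 2311 and 2001 for Hist1h1c.

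**Figure D3:**
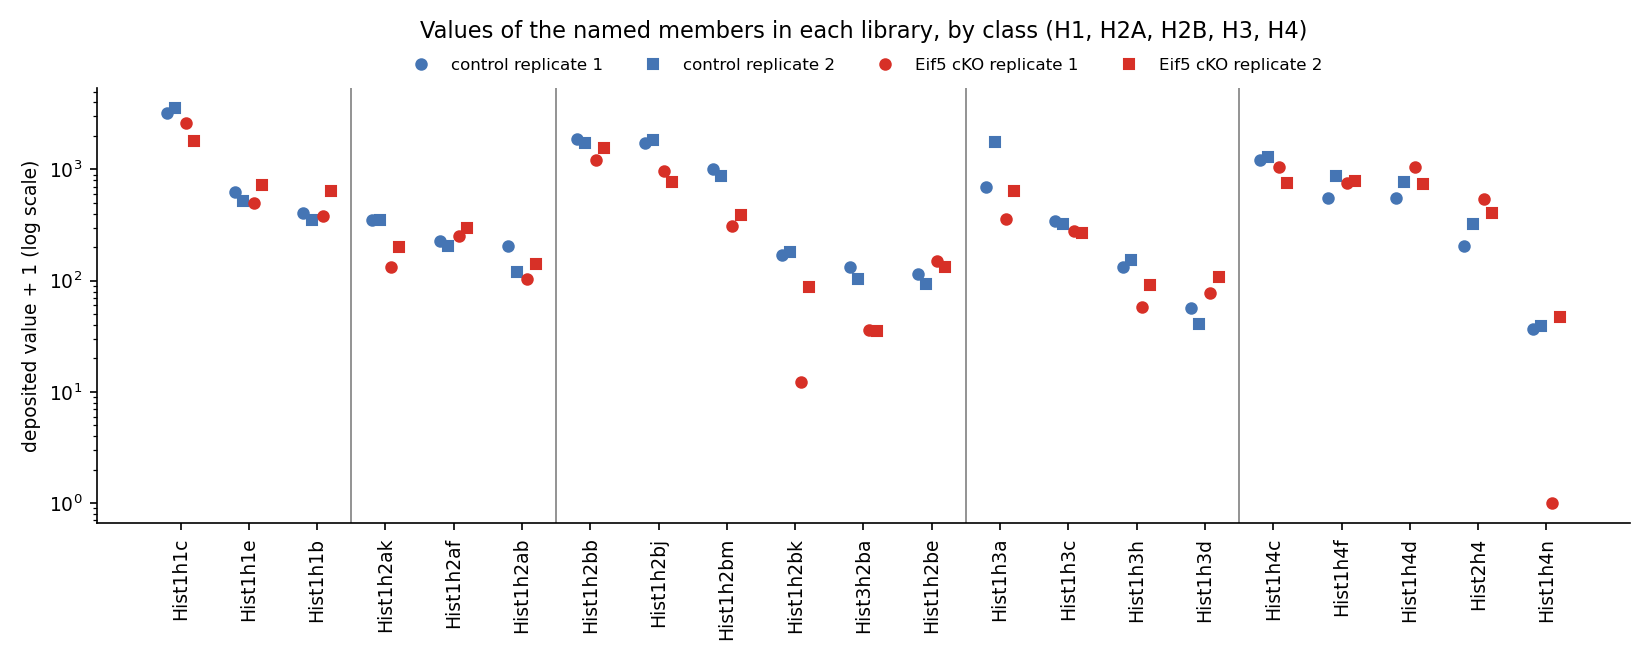
Deposited value + 1 (log scale, vertical axis) of the 21 members named by the rule, in each of the 4 libraries, in blue for control and red for Eif5 cKO, with circles for replicate 1 and squares for replicate 2. Hist1h2bk and Hist1h4n show the widest gap between the knockout replicates (11.4 and 87.0, and 0 and 45.8), whereas Hist3h2ba shows nearly equal ones (35.2 and 34.1).

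Levels can be compared between genes only per length, here the value per kilobase of the RefSeq gene span. The scale was used for the 49 members with a span of up to 1000 bases, which leaves out annotated spans far longer than a histone mRNA. In control, Hist1h1c had 4694 ± 320.4 per kilobase, Hist1h2bj 3875 ± 155, Hist1h2bb 3658 ± 201, Hist1h4c 3347 ± 166 and Hist1h3a 2429 ± 1486 (SD, n = 2 each). Hist1h2bj and Hist1h2bb did not differ beyond their spread, and Hist1h3a could not be ranked because of its own spread. In Eif5 cKO, Hist1h2bj had 1895 ± 304 and Hist1h2bb 2834 ± 490.0, so Hist1h2bb had the higher level there. The most abundant H2A member, Hist1h2ak, had 659 ± 0.226 per kilobase in control. Levels of near-identical genes depend on how reads that match several copies were counted, which the sources used here do not say; this holds for H4 above all, whose genes encode the same protein.

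By chromosomal cluster, the values were as follows, with no test between clusters. Of the 46 members in the Hist1 cluster on chromosome 13, 45 were tested, 35 had a negative log2 fold change, and the median was -0.47 (-0.20 without Eif5 cKO replicate 1). The 2 Hist3 genes on chromosome 11 had a median of -1.76, and Hist4h4 on chromosome 6 had -0.49 (SE 0.23), which was -0.76 or -0.21 with Eif5 cKO replicate 1 or replicate 2 dropped. The 3 tested Hist2 genes on chromosome 3 had 0.16 to 0.86, with a median of 0.24 that was -0.17 under scaling to the Sertoli list. Dropping control replicate 1 or 2 gave Hist2 medians of 0.01 or 0.62, and dropping knockout replicate 1 or 2 gave 0.40 or 0.12. Hist2 genes summed to 320 and 531 in control against 694 and 587 in Eif5 cKO, and Hist2h4 made up most of each sum. None of these Hist2 genes was called.

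Gaps of over 100 kb parted the Hist1 members into 3 blocks. The block from 21715711 to 21832197 held 14 members, with a median log2 fold change of -0.57 and sums of 3403 and 3174 in control against 1996 and 2346 in Eif5 cKO. The short block from 22035122 to 22043658 held 5 members (Hist1h2ah, Hist1h2bk, Hist1h4i, Hist1h2ag and Hist1h2bj). All 5 were lower in both knockout samples (20.9% of all genes tested were). Their median was -1.04, and their sums were 2067 and 2135 in control against 1037 and 940.3 in Eif5 cKO, a ratio of 0.471. Hist1h2bj alone made up most of these sums. The block from 23531044 to 23762386 held 27 members, of which 26 were tested. Its median was -0.35, and 8 were positive. With Eif5 cKO replicate 1 dropped, the 3 block medians in this order were -0.35, -0.87 and -0.13, and with Eif5 cKO replicate 2 dropped -0.89, -1.32 and -0.33. The difference between blocks was not tested.

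**Figure D4:**
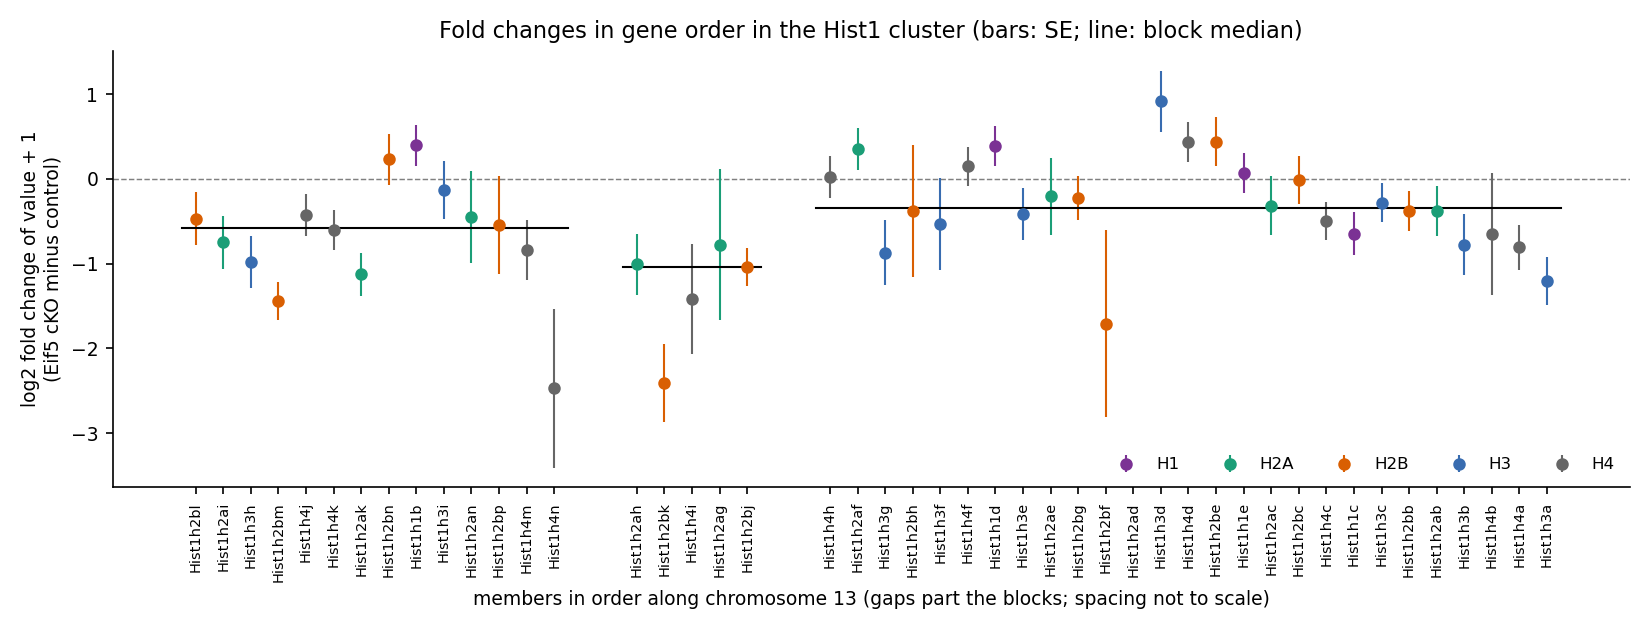
Log2 fold change of value + 1 (Eif5 cKO minus control, vertical axis) of the 45 tested Hist1 members in their order on chromosome 13, coloured by class; bars are standard errors and black lines the medians of the 3 blocks (-0.57, -1.04 and -0.35). All 5 members of the middle block lie below 0, and Hist1h2ad, which was not tested, has no point.

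Many H2A and H2B genes stand back to back, so that a short stretch of DNA lies between their start sites. Among 7 such neighbouring pairs of an H2A and an H2B member within 500 bases in which both were tested, the fold changes of the 2 genes differed most for Hist1h2ah and Hist1h2bk (-1.01, SE 0.36, and -2.41, SE 0.46) and for Hist1h2ak and Hist1h2bn (-1.12, SE 0.25, and 0.23, SE 0.30). Hist1h2bk had 10 reads in Eif5 cKO replicate 1, and its log2 fold change was -0.99 without that library. Its neighbour Hist1h2ah had 42.0 and 51.1 in Eif5 cKO, so the size of the difference in this pair rested on 1 library. The gap between Hist1h2ak and Hist1h2bn is 163 bases. Hist1h2bn had 132 and 90.7 in control against 151 and 109 in Eif5 cKO, which overlap, whereas its partner Hist1h2ak fell. The pair Hist1h2ag and Hist1h2bj had -0.78 (SE 0.89) and -1.04 (SE 0.23), and Hist1h2ae and Hist1h2bg had -0.20 (SE 0.45) and -0.23 (SE 0.26).

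The DNA just before the start sites of the called H2A and H2B genes is shown as a description. All called members were lower in a set selected on these fold changes, so their shared direction is no result. Whether any promoter element has a part in the differences was not tested. Sequences are from RefSeq (GRCm38.p6) and run 5′ to 3′ towards the start site, up to 250 bases or to the next annotated coding gene; no window was listed for Hist1h3a. Capitals mark matches, on either strand, to CCAAT, to the octamer ATTTGCAT and to TATAAA. The CCAAT box and the octamer are known elements of histone promoters.
Hist1h2bm (chr13:21721802-21722043, plus strand): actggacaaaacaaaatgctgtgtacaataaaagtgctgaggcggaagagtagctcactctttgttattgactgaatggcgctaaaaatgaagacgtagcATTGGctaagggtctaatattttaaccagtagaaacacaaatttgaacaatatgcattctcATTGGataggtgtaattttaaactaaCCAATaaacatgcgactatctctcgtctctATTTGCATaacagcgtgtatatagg
Hist1h2bk (chr13:22035644-22035820, plus strand): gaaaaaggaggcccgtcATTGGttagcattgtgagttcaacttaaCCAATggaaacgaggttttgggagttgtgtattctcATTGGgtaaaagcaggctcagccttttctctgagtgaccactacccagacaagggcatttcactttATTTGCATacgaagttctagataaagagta
Hist1h2bj (chr13:22042950-22043197, plus strand): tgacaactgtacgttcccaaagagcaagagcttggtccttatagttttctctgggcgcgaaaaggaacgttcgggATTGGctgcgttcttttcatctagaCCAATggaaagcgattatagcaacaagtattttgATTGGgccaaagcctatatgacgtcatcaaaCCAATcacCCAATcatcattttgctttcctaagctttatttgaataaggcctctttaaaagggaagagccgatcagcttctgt
Hist3h2ba (chr11:58948661-58948910, plus strand): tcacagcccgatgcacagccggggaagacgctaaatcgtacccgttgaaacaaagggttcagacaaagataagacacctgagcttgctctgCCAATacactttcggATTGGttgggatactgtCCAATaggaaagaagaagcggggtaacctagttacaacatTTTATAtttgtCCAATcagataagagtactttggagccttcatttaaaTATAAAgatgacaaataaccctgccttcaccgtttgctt
Hist1h2ak (chr13:21753913-21754075, minus strand): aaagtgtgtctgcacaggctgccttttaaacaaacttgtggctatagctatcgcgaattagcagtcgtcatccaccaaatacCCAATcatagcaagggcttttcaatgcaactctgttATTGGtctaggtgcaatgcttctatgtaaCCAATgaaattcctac

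Each of the 5 sequences holds at least 3 CCAAT matches, and Hist1h2bj holds 5. The octamer lies 25 bases before the start of Hist1h2bm and 30 before that of Hist1h2bk, and the other 3 hold no match to these letters. The Hist1h2ak sequence is the whole gap to Hist1h2bn, so the same letters, read on the other strand, precede Hist1h2bn. Over windows of 250 bases, 47 members had a listed window. CCAAT was found in all 4 H1, 12 H2A, 12 H2B and 7 H3 genes with a window and in 3 of 12 H4 genes, against 33.9% of all 32851 listed windows. The octamer was found in 5 H2A and 5 H2B genes and in none of the H1, H3 and H4 genes, against 1.601% of all windows; some of these are back-to-back genes whose windows overlap. TATAAA was found in 26 of 47 members and in 12.4% of all windows. Among the called members 2 of 5 held the octamer, beside 10 of 47 members in all.

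Within a group, genes of one class often differed between replicates in the same direction. All 12 H2A genes were lower in Eif5 cKO replicate 1 than in replicate 2, as were 7 of 9 H3 and 10 of 15 H2B genes, whereas 8 of 13 H4 genes were higher. In the controls, 12 of 13 H4 genes were lower in replicate 1 than in replicate 2, and 8 of 12 H2A genes were higher. Of all 14984 genes, 7476 were lower in Eif5 cKO replicate 1 and 7401 in control replicate 1. The H4 sum differed by 1221 between the controls and by 1062 between the knockout samples, both more than the 518 between the group means. The chi-square per degree of freedom between replicates was 16.2 for control and 17.5 for Eif5 cKO over the members, and 7.03 and 9.14 over all genes; this measure grows with reads per gene. The median member stood -0.54 (log2) from the control mean in Eif5 cKO replicate 1 and -0.20 in replicate 2.

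Histone supply also needs factors that process histone mRNA and chaperones that carry the proteins to DNA. Neither was used to choose the members, but these lists too were chosen with earlier results of these data known. Of 15 tested genes for transcribing and processing histone pre-mRNA, 0 were called by limma, edgeR, DESeq2 or limma-voom, 1 passed at an unadjusted p under 0.05, and their median log2 fold change was 0.01. The median was 0.09 without control replicate 1 and -0.13 without control replicate 2, and 1 gene was called without Eif5 cKO replicate 2. Casp8ap2, which encodes FLASH, a protein needed for cleavage of histone pre-mRNA, had 151 and 126 in control against 52.3 and 91.5 in Eif5 cKO. Both knockout values were lower, but the log2 fold change of -0.99 (SE 0.32) was not called (limma, adjusted p = 0.179). It was the gene called without Eif5 cKO replicate 2 (-1.38). Zfp473, a zinc finger protein that acts in the same step, had 19.6 and 10.3 in control against 2.27 and 4.49 in Eif5 cKO, from 2 and 5 reads in the latter (-1.85, SE 1.04, limma adjusted p = 0.554). Slbp, whose protein binds the stem-loop, had 381 and 273 in control against 343 and 246 in Eif5 cKO, which overlap (-0.15, SE 0.25); it was chosen after its values were seen.

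Among 14 replication-coupled histone chaperone genes, 9 had a negative log2 fold change and 5 a positive one. Limma called 1 lower and 0 higher. Their median of -0.33 was -0.13 without Eif5 cKO replicate 1 and -0.21 without Eif5 cKO replicate 2. Asf1b, a chaperone that hands H3 and H4 to the assembly machinery in dividing cells, had 170 and 130 in control against 67.0 and 49.3 in Eif5 cKO. Its groups were parted by more than their spread, with a log2 fold change of -1.35 (SE 0.32, limma adjusted p = 0.0277). Asf1b was not called in DESeq2 (-1.37) or without control replicate 1 (-1.16) or control replicate 2 (-1.54). Nasp, which protects soluble histones, had 2916 and 2681 in control against 1696 and 1626 in Eif5 cKO, with close replicates (-0.75, SE 0.24). It was not called in limma (adjusted p = 0.160) but was in DESeq2 and under scaling to the Sertoli list (-1.18). Of 7 replication-independent chaperone genes, 0 were called by limma, edgeR, DESeq2 or limma-voom, 1 passed at an unadjusted p under 0.05, and the median was -0.30. This median had no stable sign: it was 0.05 without Eif5 cKO replicate 1, -0.07 without control replicate 1 and -0.04 with the filter of 50 reads. The smallest p-values there were those of Hjurp, which deposits the centromeric H3 (-0.46, SE 0.23, limma adjusted p = 0.468), and Atrx, which acts with Daxx (0.56, SE 0.28, adjusted p = 0.482).

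Of 25 tested S-phase genes, 20 had a negative log2 fold change and 5 a positive one, with a median of -0.35. Limma called 2 of them lower and 0 higher. With control replicate 1 dropped 0 were called and the median was -0.20, and with control replicate 2 dropped 0 were called and it was -0.66. Rrm2, a ribonucleotide reductase subunit, had 180 and 142 in control against 62.5 and 62.8 in Eif5 cKO (-1.34, SE 0.31, limma adjusted p = 0.0221). The helicase subunit Mcm5 had 392 and 298 in control against 179.5 and 150 in Eif5 cKO (-1.06, SE 0.25, limma adjusted p = 0.0285). Neither was called without control replicate 1 (-1.17 for Rrm2 and -0.86 for Mcm5) or control replicate 2 (-1.50 and -1.25), and Mcm5 was not called without Eif5 cKO replicate 2 (-0.93). The list took 0.229% and 0.159% of control reads and 0.133% and 0.143% of Eif5 cKO reads.

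Replacement variants are as a rule not tied to S phase and come from polyadenylated mRNAs, although H2afx is known to give a stem-loop mRNA as well. They had a median of -0.33 over 10 tested genes (-0.55 without Eif5 cKO replicate 1), of which 1 fell; H2afy3 and H3f3a of the list were not analysed here. H2afx, the variant phosphorylated at DNA breaks, had 1438 and 1054 in control against 483 and 543 in Eif5 cKO (-1.26, SE 0.23, limma adjusted p = 0.0012), and was not called without control replicate 1 (-1.04). The linker variant gene H1fx had 55.5 and 43.6 in control against 22.7 and 18.8 in Eif5 cKO, and was not called (-1.21, SE 0.48, limma adjusted p = 0.326). Of the 10 tested, 8 had a negative log2 fold change and 2 a positive one. These 2 were H1f0, another linker variant gene (468 and 435 in control against 685 and 563 in Eif5 cKO), and H2afy (213 and 177 against 273 and 277). Their log2 fold changes were 0.46 (SE 0.23) and 0.50 (SE 0.25), and neither was called. The 4 genes set aside had lower values than both controls in both knockout samples. Hist1h1a went from 6597 ± 124 to 2513 ± 39.1, Hist1h2ba from 2579 ± 424 to 513 ± 31.7, Hist1h2aa from 471 ± 1.201 to 70.7 ± 11.6 and Hist1h1t from 135 ± 33.2 to 56.7 ± 0.197 (SD, n = 2 each). Limma called the first 3 of these. Hist1h1a lost its call when control replicate 1, when control replicate 2 or when Eif5 cKO replicate 1 was dropped (-1.37, -1.41 and -1.38). Hist1h1t (-1.21, limma adjusted p = 0.0715) was called in 5 of the 15 other fits. These 4 took 0.426% and 0.367% of control reads and 0.119% and 0.129% of Eif5 cKO reads. Their share was therefore below that of the 53 members in each library.

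**Figure D5:**
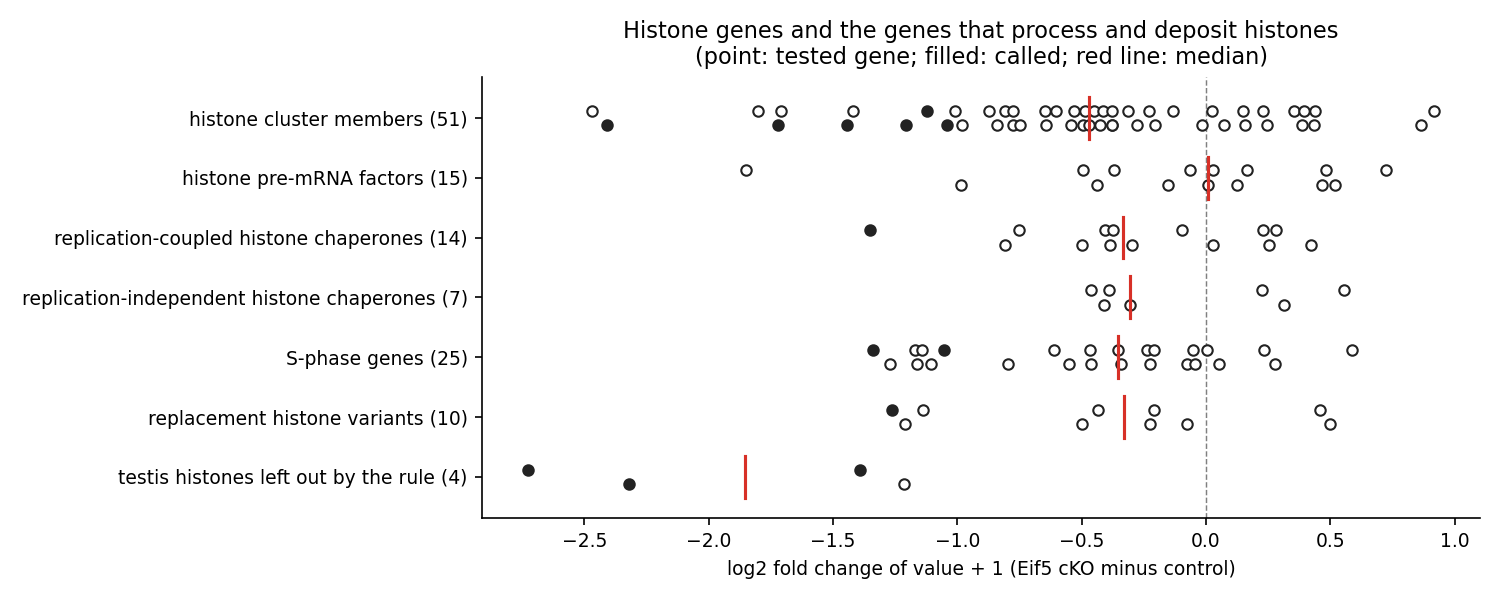
Log2 fold change of value + 1 (Eif5 cKO minus control, horizontal axis) of tested genes in the members and in 6 other lists, with the number tested in brackets; filled points were called and red lines are medians. The medians are -0.47 for the 51 members, 0.01 for pre-mRNA factors, -0.33 and -0.30 for the chaperones, -0.35 for S-phase genes, -0.33 for replacement variants and -1.86 for the 4 testis histones.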

How the data were processed

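Ribosome footprints from 2 control and 2 Eif5 cKO testis samples were analysed. The deposited signal values are gene read counts that the authors divided by a size factor for each library, although the columns are named raw counts; multiplying back gave whole reads for 100% of values (relative tolerance 1e-06). Bowtie2, STAR, featureCounts and GRCm38 are named per the submitters' processing notes; versions, and the treatment of strand and of reads with several matches, were not given in the sources used here. Genes were kept by filterByExpr (edgeR 4.0.16, minimum count 10) and log2(value + 1) was tested with limma 3.58.1 (R 4.3.3, trend), with Benjamini-Hochberg adjustment over 12095 genes and a threshold of 0.05. The pseudocount shrinks fold changes of low genes, whereas a value at or near 0 in 1 library can make them larger than the ratio of means. edgeR's quasi-likelihood test, DESeq2 1.42.0 and limma-voom on recovered reads, other scalings, pseudocounts and filters, the replicate block and leaving out each library were alternatives. On simulated data, limma called 23 of 100 genes lowered 2-fold and, of those lowered 4-fold, 69 of 100, with 1 false call. The lowered genes were drawn only from those above a set mean value, and reads were drawn independently for each gene. These counts may therefore not hold for members of few reads or for classes whose genes shift together between replicates.

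Members and lists were chosen with earlier results of these data known. Named members were, per class, the 3 with the highest mean, those with the lowest and highest log2 fold change, and every called one; in other lists, every called gene and the 2 with the smallest p; and Eif5 and the 4 genes set aside. Other genes were named where a sentence turned on them, after their values were seen. Gene positions and sequences are RefSeq's (GRCm38.p6), matched by symbol or synonym. Levels per kilobase use the RefSeq span.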

Additional observations from a re-analysis of the deposited data

How the results depend on the processing

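Under scaling to the Sertoli list, the median of all genes moved to -0.42, the median of the members to -0.90, the calls over all genes from 73 lower and 9 higher to 170 lower and 0 higher, and the genes called in the other lists from 7 to 11. Members with a negative log2 fold change went from 38 to 47 and those with a positive one from 13 to 4, so most positive signs depended on the scaling. Leaving out one library at a time gave 1 to 9 members called lower, 0 to 1 called higher, a member median of -0.54 to -0.20, and 2 to 10 genes called in the other lists; the cause was not tested. The difference in the share of reads stayed between -0.23 and -0.19 percentage points. Over 36 named genes and the alternatives, 487 of 537 values kept sign and side of the threshold, 28 lost a call, 12 gained one, 9 turned sign and 1 had no adjusted p. The turned signs were those of Hist1h1b, Hist1h1e, Hist1h2ab, Hist1h2af, Hist1h4f and Hist1h4n, none of them called with all 4 libraries and the main settings. Replicate numbers did not pair the samples (correlation of deviations -0.047); the replicate block gave 6 members lower and 0 higher. Members with a RefSeq protein accession, used in place of a protein table, had a median of -0.46. With 2 samples a group, genes of few reads, such as Hist1h2ag with 4 to 16, are measured loosely.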
